A study of Mus musculus with 4 samples.

Results

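The serpins are a family of proteins that mostly inhibit serine proteases, and the genes described here are those whose single symbol on the array has the form Serpin, a clade letter from a to i, a number and an optional letter. 39 genes met this rule among 18194 genes with 1 symbol. They comprised 13 genes of clade a, 18 of clade b, 2 each of clades f and i, and 1 each of clades c, d, g and h. 6 further serpin genes were named only by probe sets that carry several symbols, and 18 of the 63 protein-coding serpins of the RefSeq mouse annotation (GRCm38.p6) are not analysed here.

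A serpin presents a reactive loop to a protease, which cuts it and is trapped in a covalent complex, so that each molecule works once. The liver secretes many clade a, c, d, f and g serpins into plasma, where they restrain clotting, fibrinolysis, complement and leukocyte elastase. Clade b serpins stay inside cells and protect them against their own granule and lysosomal proteases. Some members inhibit nothing and carry hormones or assist collagen folding.

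Gene expression was measured in livers of mice at 10 months of age in 4 groups, which crossed diethylnitrosamine (DEN), a liver carcinogen, with a diet holding 0.2% cholic acid (CA), a bile acid made by the liver. 1 group each was formed of mice without DEN on the control diet, mice without DEN on the CA diet, mice treated with DEN and then fed the control diet, and mice treated with DEN and then fed the CA diet. Strain, sex, dose of DEN and the share of tumour tissue in each liver are not stated in the labels. Each group was measured on 1 array with RNA from the pooled livers of 3 to 5 mice. There are therefore no replicates, no test was made, and differences between mice cannot be told apart from those between treatments.

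Levels are log2 values, on which a difference of 1 is 2-fold. A gene was called expressed when its mean over the 4 arrays reached 4.86, the median over all probe sets, and it was counted as higher or lower from 2-fold on. By this limit 21 serpins and 11651 genes in all were expressed. Array medians lay between 4.84 and 4.86. All 8 hepatocyte markers were expressed, among them Alb, the albumin gene, at 14.74 to 14.82 on the 4 arrays. In RNA of whole livers, fewer cells of a type and less RNA per cell cannot be told apart. Levels of different genes come from different probes and are not compared with each other.

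DEN treatment went with higher levels of a few serpins, on both diets, while most of the family differed little. On the control diet 4 of 21 expressed serpins were at least 2-fold higher in the DEN pool, against 5.12% of all expressed genes, and 0 were lower by as much, against 0.901%. They were Serpinb6a, Serpina12, Serpinb6b and Serpina7. On the CA diet 5 of 21 were at least 2-fold higher, against 4.75%, namely the same 4 genes and Serpina3n, and Serpina6 was lower, against 1.75%. Mice with both treatments, set beside mice with neither, had the same 5 genes higher (5.97% of all expressed genes) and 0 lower (2.2%). With array medians over expressed genes set equal, that last split became 4 higher and 1 lower, as Serpina7 dropped out and Serpinb1a, the leukocyte elastase inhibitor gene, came in.

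**Figure D1:**
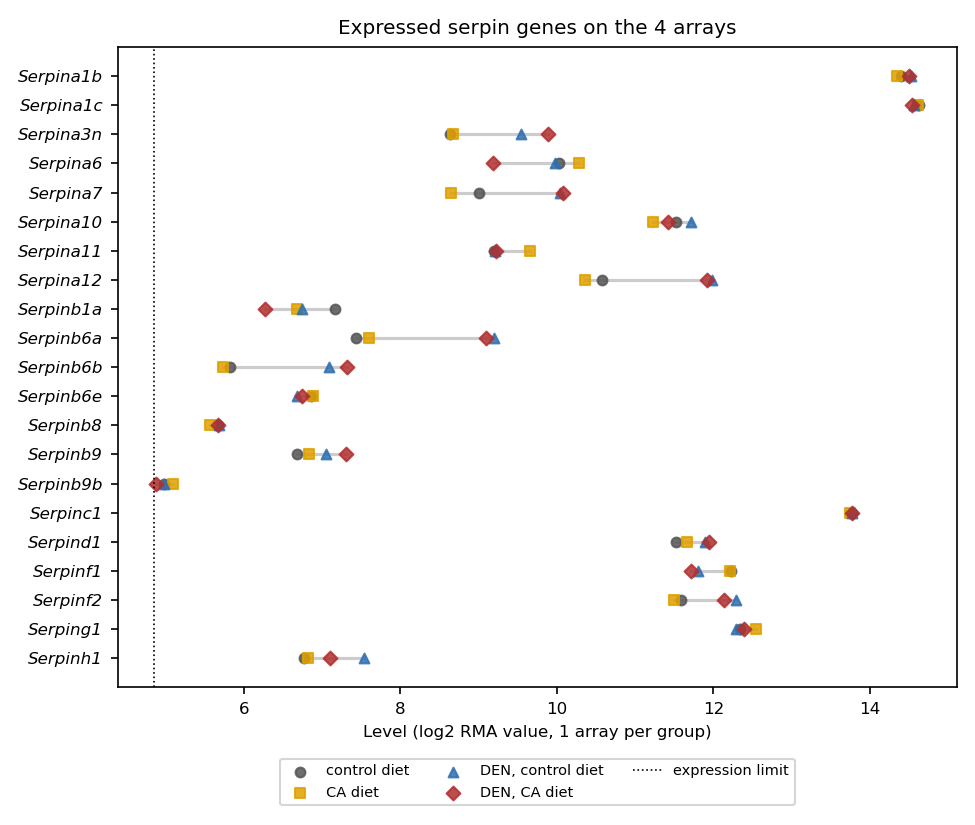
Levels of the 21 expressed serpins on the 4 arrays (x axis, log2 RMA value), 1 row for each gene in clade order and 1 symbol for each group; the dotted line is the expression limit of 4.86 and the grey bar spans the 4 arrays. Both DEN symbols lie to the right of both others for Serpinb6a, Serpina12, Serpinb6b, Serpina7 and Serpina3n. The same order, under 2-fold on both diets, holds for Serpina1b, Serpinb8, Serpinb9, Serpinc1, Serpind1, Serpinf2 and Serpinh1. Serpinc1 spans 0.03.

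The median difference of the 21 genes was small in every comparison. For DEN it was 0.13 on the control diet, beside 0.04 over all expressed genes, and 0.15 on the CA diet, beside 0.0043. The value on the CA diet was 0.07 both after quantile normalization and after centring. That on the control diet became -0.03 when each array was centred on its median, a step that moved every gene by -0.16 in that comparison. For both treatments against neither the median was 0.05, beside 0.01 over all genes, and -0.07 after centring, which moved every gene by -0.12.

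Both DEN comparisons use different arrays, so they are separate pairs of pools. Across the 21 serpins the 2 DEN differences correlated at 0.92 (Pearson) and 0.93 (Spearman), and over all 11651 expressed genes at 0.86 and 0.75. 19 of the 21 serpins had the same sign on both diets, as had 76.1% of all expressed genes. Genes of 1 pool are not independent replicates, so these values only describe the pools.

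**Figure D2:**
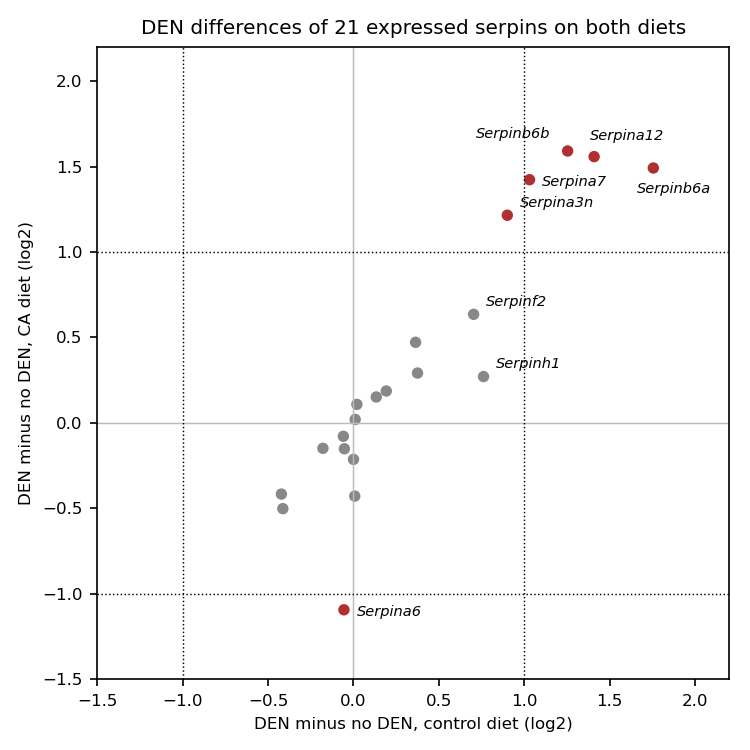
DEN difference of each of the 21 expressed serpins, control diet on the x axis and CA diet on the y axis (both log2); dotted lines mark 2-fold and red points are genes past it in at least 1 comparison. 4 genes lie past 2-fold on both axes, Serpina3n at 0.90 and 1.22, and Serpina6 at -0.06 and -1.09.

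Serpinb6a, which encodes an intracellular inhibitor of cathepsin G and other granule proteases, had levels of 7.44 on the control diet, 7.60 on the CA diet, 9.20 after DEN on the control diet and 9.09 after DEN on the CA diet. Both DEN pools stood well above both pools without DEN. This was 3.38-fold on the control diet and 2.81-fold on the CA diet. Its mouse paralogue Serpinb6b had levels of 5.83, 5.73, 7.08 and 7.32 in the same order, which was 2.38-fold and 3.01-fold. The third expressed paralogue, Serpinb6e, did not share this and stood at 6.86, 6.89, 6.68 and 6.74. The Serpinb6e probe set is of a type (x in its name) with probes that can match other transcripts. Serpinb6c was under the expression limit.

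In the RefSeq order of protein-coding genes on chromosome 13, Serpinb6b and Serpinb6a belong to 1 run of serpins with no other protein-coding gene between them, Serpinb6b near its start and Serpinb6a last. Serpinb9, the inhibitor of granzyme B that follows Serpinb6b in this order, had levels of 6.68, 6.83, 7.05 and 7.30. Its DEN differences were 0.36 and 0.47, under 2-fold, and its other probe set gave 0.48 and 0.27. The next expressed gene, Serpinb9b, differed by 0.00 and -0.21. Among the expressed genes of the run, those past 2-fold for DEN were Serpinb6a and Serpinb6b.

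Serpinb1a had levels of 7.17, 6.68, 6.75 and 6.27 and was lower with either treatment. It differed by -0.42 after DEN on both diets, by -0.49 for the CA diet without DEN and by -0.48 for the CA diet after DEN, which came to -0.90 for both together. A second, dimmer probe set gave -0.46, 0.10, -0.73 and -0.18 for the first 4 of these and -0.64 for both together. Serpinb8, a further cytoplasmic member, stayed between 5.57 and 5.69.

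Genes of clade b are also expressed in leukocytes, so markers of these cells were set beside them. All 8 macrophage markers were expressed, and their mean level was 7.43 on the control diet, 8.11 on the CA diet, 8.31 after DEN on the control diet and 8.98 after DEN on the CA diet. Those at least 2-fold higher for DEN were Cd68 and Cd14, on both diets. Of 7 neutrophil markers 4 were under the limit on average (Cxcr2, Elane, Mpo and Ngp), and the list had a mean level of 4.77, 5.00, 5.28 and 5.42. S100a8 and S100a9, calcium-binding protein genes of neutrophils, differed by 2.48 and 1.78 for DEN on the control diet, while the other 5 ran from -0.54 (Ngp) to 0.14 (Elane), and the median of the 7 was 0.07. S100a8 stood at 3.71 and 4.82 without DEN, under the limit, and passed it only through the DEN arrays. Markers of other cells of the liver were set beside them too. The 6 cholangiocyte markers had mean levels of 4.01, 4.28, 5.75 and 5.91, with Krt7, Krt19 and Cftr under the limit on average and Tspan8, a tetraspanin gene, at 3.69, 3.92, 11.38 and 11.75. Most of the difference in that mean comes from Tspan8, which passed the limit only through the DEN arrays. For DEN on the control diet Epcam, an expressed marker, differed by -0.05 and Krt7 by -0.02. Sox9, Krt19 and Cftr differed by 1.31, 0.73 and 0.82, and the median of the 6 was 0.78. On the CA diet Sox9 differed by 1.53, Krt19 by 0.29 and Cftr by -0.02, and that median was 0.20. The 8 endothelial markers had mean levels of 6.97, 7.04, 7.40 and 7.52, with 7 expressed. The part of any of these cells in the differences of Serpinb6a, Serpinb6b and the other serpins was not tested.

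Serpina12 encodes vaspin, a secreted inhibitor of kallikrein 7 known as an adipokine and also made in liver. Its levels were 10.58 and 10.36 without DEN and 11.99 and 11.92 after DEN. Both DEN pools were above both others, by 2.65-fold on the control diet and 2.94-fold on the CA diet. A second, dimmer probe set read 5.06, 5.44, 7.04 and 7.17 and gave log2 differences of 1.98 and 1.73. Of the adipocyte markers 3 were measured and 1, Fabp4, was expressed, with 1.38 for DEN on either diet. The 3 had mean levels of 4.51, 4.55, 4.87 and 5.10, and Adipoq, the adiponectin gene, was at 2.57, 2.45, 2.43 and 3.03. The part of adipocytes in the level of Serpina12 was not tested.

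Serpina7 encodes the plasma carrier of thyroxine and is the only member on the X chromosome. It had levels of 9.01 and 8.65 without DEN and 10.04 and 10.07 after DEN. This was 2.04-fold on the control diet and 2.68-fold on the CA diet, with both DEN pools above both others. The control-diet difference of 1.03 lay just past the threshold, and it was 0.98 after quantile normalization and 0.87 after median centring. The other plasma carriers measured did not share it: Ttr, transthyretin, and Rbp4, the retinol carrier, each differed by -0.05 on the control diet. Ttr stood at 14.56 to 14.64 and Rbp4 at 13.84 to 13.90, toward the highest values on the arrays (14.82 to 14.91). An array can compress differences there, which was not tested.

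Serpina6 encodes the plasma carrier of corticosteroids, which inhibits no protease. Its levels were 10.03 on the control diet, 10.28 on the CA diet, 9.98 after DEN on the control diet and 9.19 after DEN on the CA diet. Only the pool with both treatments was low, 2.14-fold below the CA diet alone and 1.73-fold below DEN alone. The CA diet went with a difference of 0.25 without DEN and of -0.79 after DEN, so that the diet differences lay 1.04 apart (-1.04). Of all expressed genes 0.73% lay at least as far apart in this direction as 2-fold. Over 8 hepatocyte markers the mean level was 13.61, 13.70, 13.56 and 13.40. Among them Tat, an aminotransferase gene, stood at 12.26, 12.22, 11.81 and 10.57, and was the marker lower by at least 2-fold. For both treatments against neither, the other markers ran from -0.43 (Cps1) to 0.25 (Fgb), with Alb at 0.07, so that the low mean comes largely from Tat. The part of hepatocytes in the level of Serpina6 was not tested.

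**Figure D3:**
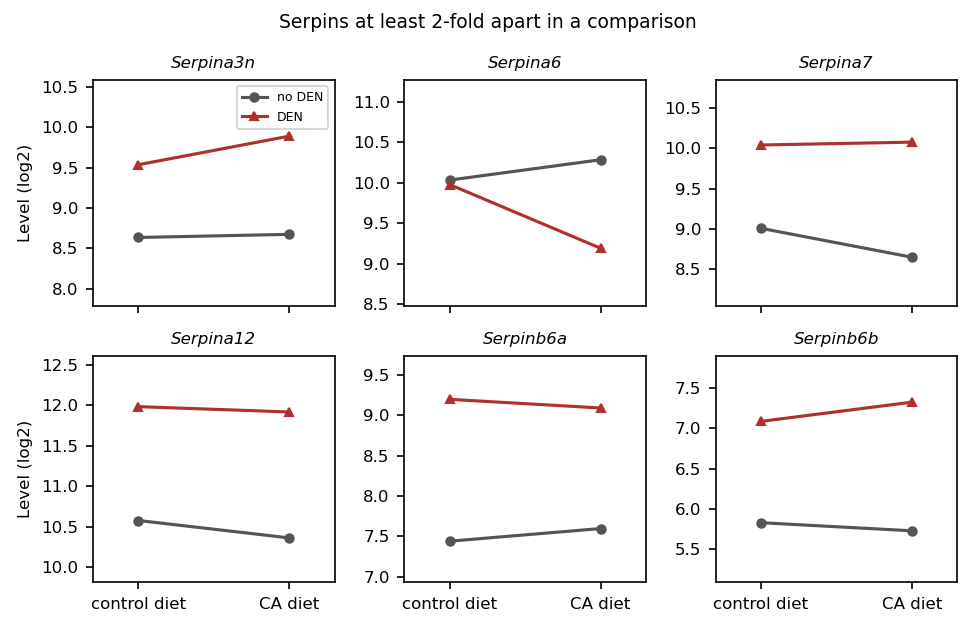
Levels (y axis, log2) of the 6 serpins at least 2-fold apart in any comparison, on each diet (x axis), without DEN (grey circles) and after DEN (red triangles), 1 array per point and the same span of levels in each panel. For 5 genes the DEN line lies above the other on both diets, and for Serpina6 the lines are close on the control diet (10.03 and 9.98) and apart on the CA diet (10.28 and 9.19).

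Serpina3n belongs to the mouse expansion of the antichymotrypsin gene and is known as an acute phase gene. 3 genes of that expansion were measured, and the others are not analysed here. Its levels were 8.64, 8.67, 9.54 and 9.89, so both DEN pools were above both others. The DEN difference was 1.87-fold on the control diet, just short of the threshold, and 2.32-fold on the CA diet. Other acute phase genes differed in both directions. Of 19 expressed, 2 were at least 2-fold higher and 4 lower after DEN on the control diet (median 0.07), with Lcn2, lipocalin 2, at 3.74 and Saa2, a serum amyloid A gene, at -3.04. The shares of all expressed genes were 5.12% higher and 0.901% lower. On the CA diet 2 were higher and 3 lower (median 0.03), beside 4.75% and 1.75% of all expressed genes. The other Serpina3 genes measured were under the limit, Serpina3a at 4.96, 5.20, 4.64 and 4.32, and Serpina3i at 4.47, 4.43, 4.44 and 4.49.

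Stretches of DNA before gene starts, 250 bases each, are printed from RefSeq (GRCm38.p6). They belong to the 5 genes at least 2-fold higher after DEN on at least 1 diet. In all 5 both DEN pools were above both others, an order that several serpins under 2-fold shared. Capitals mark letters found by a search of both strands for 6 short motifs. Of 32851 such stretches in the RefSeq table, 6.43% hold the HNF1 half-site, searched as GTTAAT, and 9.56% the C/EBP core, searched as TTGCNNAA. The STAT element, searched as TTCNNNGAA, is in 7.02% of them, and the AP-1 element, searched as TGANTCA, is in 6.75%. The TATA box, with the letters TATAAA, is in 12.4%, and the E-box, with the letters CACGTG, is in 6.02%. Positions are chr12:104044444-104044693 on the minus strand for Serpina12, chrX:139085220-139085469 on the minus strand for Serpina7, chr12:104406458-104406707 on the plus strand for Serpina3n, chr13:34002795-34003044 on the minus strand for Serpinb6a and chr13:32965011-32965260 on the plus strand for Serpinb6b.

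Serpina12: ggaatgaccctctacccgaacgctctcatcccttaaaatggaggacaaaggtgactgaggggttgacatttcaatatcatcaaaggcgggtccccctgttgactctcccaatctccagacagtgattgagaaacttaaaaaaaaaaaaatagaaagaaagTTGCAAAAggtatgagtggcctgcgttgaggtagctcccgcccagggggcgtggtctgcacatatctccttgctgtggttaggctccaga
Serpina7: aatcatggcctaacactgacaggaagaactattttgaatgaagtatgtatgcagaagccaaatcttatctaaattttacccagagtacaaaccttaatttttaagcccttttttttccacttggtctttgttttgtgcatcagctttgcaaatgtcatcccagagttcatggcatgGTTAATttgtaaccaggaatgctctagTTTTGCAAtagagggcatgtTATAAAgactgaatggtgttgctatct
Serpina3n: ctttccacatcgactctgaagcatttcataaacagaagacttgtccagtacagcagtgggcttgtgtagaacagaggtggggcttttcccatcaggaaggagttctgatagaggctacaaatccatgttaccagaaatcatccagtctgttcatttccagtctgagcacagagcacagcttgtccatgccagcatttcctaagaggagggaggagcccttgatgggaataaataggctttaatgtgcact
Serpinb6a: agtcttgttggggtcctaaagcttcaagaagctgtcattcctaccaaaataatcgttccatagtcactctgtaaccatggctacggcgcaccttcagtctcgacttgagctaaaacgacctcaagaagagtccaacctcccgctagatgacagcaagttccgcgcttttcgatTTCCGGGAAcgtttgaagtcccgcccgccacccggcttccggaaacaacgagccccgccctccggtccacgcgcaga
Serpinb6b: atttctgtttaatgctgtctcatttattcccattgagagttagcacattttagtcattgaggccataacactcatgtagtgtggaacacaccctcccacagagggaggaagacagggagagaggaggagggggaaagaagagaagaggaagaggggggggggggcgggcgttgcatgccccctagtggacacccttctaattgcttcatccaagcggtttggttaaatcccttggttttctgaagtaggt

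The 5 stretches held no motif in common. Serpina7 had 3 matches, an HNF1 half-site, a C/EBP core on the other strand and a TATA box ending 22 bases before the start, and none of them overlapped. Serpina12 had 1 C/EBP core and Serpinb6a 1 STAT element, while Serpina3n and Serpinb6b had none of the 6. RefSeq lists a second start for Serpinb6a, whose 250 bases held none, and a second, overlapping one for Serpina7 with the same 3 matches. A match describes letters and says nothing of binding.

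Serpina1 encodes alpha-1-antitrypsin, the main plasma inhibitor of neutrophil elastase, and mice carry several near-copies of it. Serpina1b had levels of 14.39, 14.34, 14.53 and 14.49, and its second probe set 14.28, 14.19, 14.43 and 14.39. Serpina1c had levels of 14.62, 14.61, 14.56 and 14.53. The largest difference of either gene was 0.15, that of Serpina1b for DEN on the CA diet, where its second probe set gave 0.20. These levels lie close to the highest values on the arrays (14.82 to 14.91), where an array can compress differences, and this was not tested.

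The array may not separate these copies. 1 probe set carries the symbols Serpina1d and Serpina1a and had levels of 13.98, 13.89, 14.10 and 14.06. Another carries Serpina1e, Serpina1c and Serpina1b, with 12.23, 11.99, 12.18 and 12.17. Both Serpina1b probe sets are of the type whose probes can match other transcripts. A DEN difference of any 1 copy could thus go unseen or be read under another copy's name. Serpina1f, a more distant relative, was under the limit at 2.69, 2.57, 2.70 and 2.67.

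The copies are also alike before their starts. Those bases lie outside the transcript, so they do not show which copies a probe reads. 76 bases around the HNF1 half-site (capitals) are printed for 5 copies on the minus strand of chromosome 12, because they let the copies be compared letter by letter. Positions in GRCm38.p6 are chr12:103863625-103863700 (Serpina1a), chr12:103738200-103738275 (Serpina1b), chr12:103904962-103905037 (Serpina1c), chr12:103773634-103773709 (Serpina1d), chr12:103956960-103957035 (Serpina1e).

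Serpina1a: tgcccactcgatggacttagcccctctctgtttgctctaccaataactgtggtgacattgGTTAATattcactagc
Serpina1b: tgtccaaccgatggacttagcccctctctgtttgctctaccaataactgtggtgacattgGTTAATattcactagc
Serpina1c: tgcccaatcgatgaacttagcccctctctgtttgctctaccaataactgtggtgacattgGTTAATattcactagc
Serpina1d: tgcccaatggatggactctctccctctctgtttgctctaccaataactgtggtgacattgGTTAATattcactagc
Serpina1e: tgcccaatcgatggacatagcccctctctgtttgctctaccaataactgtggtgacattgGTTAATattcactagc

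66 of the 76 bases were alike in all 5 copies, with 55 of them in 1 run that holds the half-site. Pairs of copies differed at 2 to 7 bases. Over the 250 bases before each start, aligned pairs were 92.1% to 98.0% identical (10 pairs). All 5 copies hold the GTTAAT half-site, which 6.43% of all promoters hold.

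Serpina10, the protein Z-dependent inhibitor of factor Xa, had levels of 11.52, 11.23, 11.71 and 11.42. It differed by 0.19 after DEN on both diets, and by -0.28 and -0.29 for the CA diet. The Serpina10 probe set (s in its name) is also of a type that can match other transcripts. Serpina11, which follows the Serpina1 copies in the RefSeq order of chromosome 12, had 9.20, 9.65, 9.21 and 9.22. The CA diet without DEN was the pool that stood out, with 0.45, while the same diet after DEN gave 0.01.

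The secreted inhibitors of clotting, fibrinolysis and complement showed small differences. Serpinc1, antithrombin, stayed between 13.75 and 13.78 on the 4 arrays, also toward the top of their scale. Serpind1, heparin cofactor II, had 11.52, 11.66, 11.89 and 11.95, or 0.37 and 0.29 for DEN. Serping1, the C1 inhibitor of complement, had 12.34, 12.54, 12.29 and 12.39. Serpinf2, the main inhibitor of plasmin, was the one with the most distinct DEN difference, at 11.58 and 11.50 without and 12.28 and 12.14 after DEN. Both DEN pools were above both others, by 0.70 and 0.64, which is short of 2-fold.

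Serpinf1 encodes pigment epithelium-derived factor, a secreted serpin that inhibits vessel growth and no protease. It was lower in both DEN pools, at 12.22 and 12.21 without and 11.81 and 11.71 after DEN (-0.41 and -0.50). Its other probe set gave -0.59 and -0.53. Serpinh1 encodes a chaperone of collagen in the endoplasmic reticulum. Its levels were 6.78, 6.83, 7.54 and 7.10, so that the DEN difference was 0.76 on the control diet, against 0.27 with CA. This probe set is of the type (x in its name) whose probes can match other transcripts. A dimmer probe set gave 1.00 and 0.14.

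Beside Serpinh1, 7 of 18 expressed genes of collagen and its maturation were at least 2-fold higher after DEN on the control diet and 0 were lower (median 0.61). The 7 were Sparc and the collagen genes Col1a1, Col1a2, Col3a1, Col4a1, Col4a2 and Col5a2. The expressed maturation genes, the rest of the list, were all under 2-fold, from -0.09 (Plod1) to 0.73 (P3h1). The shares of all expressed genes were 5.12% higher and 0.901% lower. On the CA diet 5 were higher and 0 lower (median 0.47), beside 4.75% and 1.75% of all expressed genes. Col1a1 and Col1a2 were not among these 5, and the maturation genes ran from -0.58 (Plod1) to 0.65 (Crtap). Col5a2 and Col3a1, collagen genes, were at 2.86 and 1.94 on the control diet and at 2.01 and 1.22 on the CA diet. All 8 stellate and fibroblast markers were expressed, with mean levels of 7.09, 7.15, 7.75 and 7.65, and 3 of them (Acta2, Col1a2 and Col1a1) were at least 2-fold higher for DEN on the control diet. Col1a1 and Col1a2 also stand in the collagen list. Col1a1 stood at 4.55, 4.97, 5.59 and 5.48. It was under the limit on the control array, and its mean passed the limit only through the DEN arrays. The part of stellate cells and fibroblasts in the level of Serpinh1 was not tested.

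The proteases that serpins act on were described by a list of 28. Of 23 expressed target proteases 1 was at least 2-fold higher after DEN on the control diet and 0 were lower (median 0.09). It was Plat, tissue plasminogen activator, at 4.44, 4.25, 5.94 and 5.77. It was under the limit on both arrays without DEN and passed it through the DEN arrays, so its place in these counts follows from the filter. On the CA diet 3 were higher and 0 lower (median -0.09). Besides Plat they were Prss8, prostasin, and Prtn3, proteinase 3. Prss8 stood at 6.02, 4.65, 6.87 and 6.23, and Prtn3 at 6.10, 4.78, 6.70 and 6.23. For both, the pool on the CA diet without DEN was the low one. Of 8 expressed cofactors and clearance receptors 0 passed 2-fold for DEN on either diet, in either direction. Of all expressed genes 5.12% were higher and 0.901% lower on the control diet, and 4.75% and 1.75% on the CA diet. In lists this short, counts of 0 or 1 are near these shares.

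Inhibitors of other families were described by a list of 27, of which 25 were measured. Of 23 expressed, 3 were at least 2-fold higher after DEN on the control diet and 0 lower (median 0.32), and the same count held on the CA diet (median 0.21). The shares of all expressed genes were 5.12% and 0.901% on the control diet, and 4.75% and 1.75% on the CA diet. Spink1, a trypsin inhibitor, stood at 3.47 and 4.27 without and 9.13 and 8.44 after DEN, and it too passed the limit only through the DEN arrays. Itih5, a heavy chain of the inter-alpha-inhibitor family, stood at 8.19 and 8.71 without and 11.60 and 11.92 after DEN. Slpi, the secretory leukocyte protease inhibitor, stood at 6.86, 6.92, 9.15 and 8.71. Among 16 expressed genes for folding and degradation of secreted proteins 0 passed 2-fold for DEN on either diet (medians 0.30 and 0.12). In a list this short, a count of 0 is near the shares of all expressed genes.

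The CA diet went with no serpin difference of 2-fold. Without DEN, 0 of 21 expressed serpins were higher and 0 lower by that much, against 0.661% and 0.592% of all expressed genes, and all 21 lay within 1.5-fold. The range ran from -0.49 for Serpinb1a to 0.45 for Serpina11. After DEN, 0 of 21 were higher and 0 lower, against 0.266% and 0.472%, and 20 of 21 lay within 1.5-fold. The range ran from -0.79 for Serpina6 to 0.35 for Serpina3n. The counts at 2-fold are near the background shares and are not a result about serpins. For 1.5-fold no share of all expressed genes was computed. The 2 diet differences, which share no array, correlated at 0.13 (Pearson) across the 21 serpins and at 0.41 across all expressed genes. 15 of the 21 serpins had the same sign in both, as had 57.7% of all expressed genes.

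**Figure D4:**
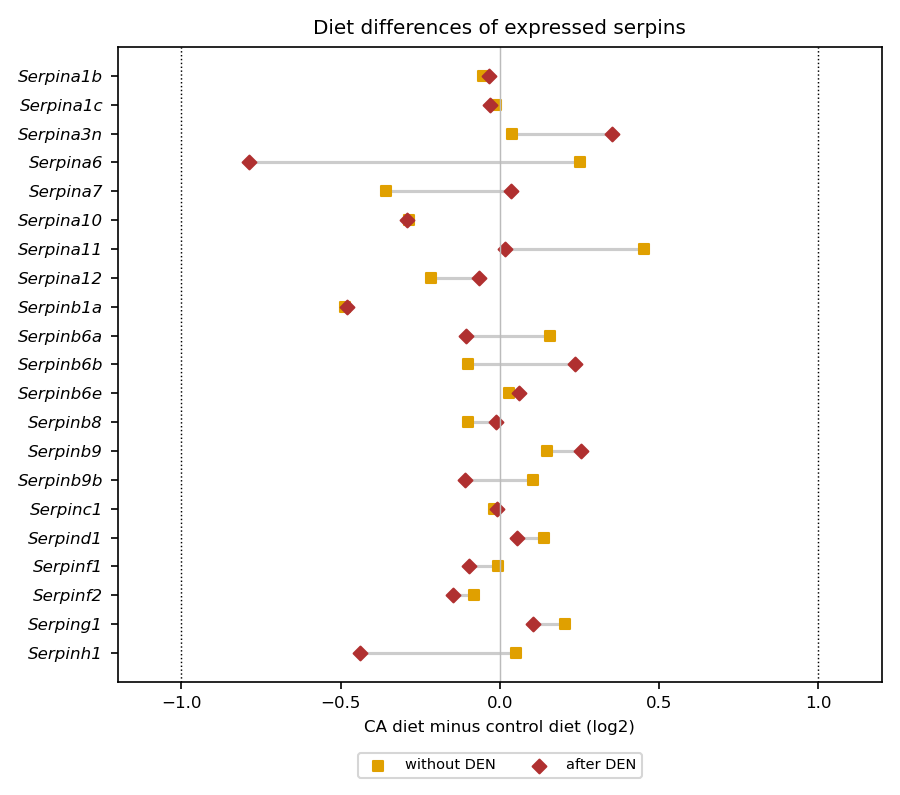
CA diet minus control diet (x axis, log2) for the 21 expressed serpins, without DEN (squares) and after DEN (diamonds); dotted lines mark 2-fold. All points lie inside these lines, and the widest gap between both symbols is that of Serpina6 (0.25 and -0.79).

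The other 18 serpins had means of at most 4.78, under the limit. Of these 5 were of clade a, 11 of clade b and 2 of clade i, and they include the maspin gene Serpinb5 and the neuroserpin gene Serpini1. Only Serpina3a and Serpini1 reached the limit on any array. Their differences were all under 2-fold, the largest being 0.88 in size, and at such levels a difference in the cells may not show.

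7 expressed serpins had several probe sets, which read the same pools on the same arrays. In the 14 DEN values, the second probe set had the same sign as the one used in 12 and lay at most 0.57 away (Serpina12 on the control diet). Over all 5 comparisons the sign was shared in 29 of 35, with gaps of up to 0.77.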

How the data were processed

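The authors deposited log2 expression values of 4 arrays of an Affymetrix mouse array, with RMA and Partek 6.5 named in the submitters' processing notes. RMA corrects background, draws the distributions of the arrays together and summarises each probe set, so a shift common to most genes is removed. Per the labels' protocols, Trizol RNA (1 µg) was given a biotin label. The number of arrays limits the precision.

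Of 45101 probe sets, 34958 had 1 symbol, 932 several and 9211 none in the platform annotation used. All 39 serpin symbols matched RefSeq by gene identifier. Where a gene had several probe sets, the brightest on average was used. The members, gene lists, rule for named genes and motifs were chosen with earlier results of these data known. Levels on every array were to be given for expressed serpins past 2-fold in any of 5 comparisons and, whatever their difference, for Serpina1, Serpina3 and their copies, Serpina6, Serpinc1, Serpind1, Serpinf1, Serpinf2, Serping1 and Serpinh1; from gene lists, up to 4 genes with the largest differences per comparison. Serpina10, Serpina11, Serpinb1a, Serpinb6e, Serpinb8, Serpinb9 and Serpinb9b, and the cell markers named singly, fall outside this rule and were chosen after their values were seen. A comparison of proteins between copies was planned but no protein sequences were used here. The bases before gene starts were aligned in its place (pairs of at least 150 aligned bases), which does not measure how alike the proteins are. Values were computed with Python 3.11.15 and pandas 2.3.3. The steps were tested on simulated data.

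Alternatives were no expression filter, quantile normalization, equal array medians over expressed genes, a 1.5-fold threshold, a limit at the upper quartile (6.63), means over probe sets, each probe set alone, and low values raised to the limit.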

Additional observations from a re-analysis of the deposited data

Results flagged for a closer look

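The CA diet difference of Serpina6, the corticosteroid carrier gene, had opposite signs without DEN (0.25) and after DEN (-0.79), and the second minus the first was -1.04. Each of the 4 values is that of 1 pool, and this difference was not tested.

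Serpina4-ps1 is annotated in RefSeq as a transcribed pseudogene and lies between Serpina12 and Serpina5 in its gene order, and it falls outside the rule that chose the serpins above. Its 3 probe sets were higher on the CA diet without DEN, by 1.55, 1.44 and 1.47 on the log2 scale. The brightest read 8.76 on the control diet, 10.23 on the CA diet, 7.95 after DEN on the control diet and 8.94 after DEN on the CA diet. It is of the type (x in its name) whose probes can match other transcripts. After DEN the diet differences were 0.94, 1.24 and 0.99. The 3 probe sets read the same pools, so they are no replicates of a diet.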

How the results depend on the processing

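With the 1.5-fold threshold, 7 serpins were higher for DEN on the control diet, 1 was lower for the CA diet after DEN and 2 were lower for both treatments against neither. No share of all expressed genes was computed at 1.5-fold, so these counts have no background beside them. Without a filter, the DEN medians were -0.0022 (control diet) and 0.049 (CA diet). Quantile normalization gave 0.0074 for the former. With array medians over expressed genes set equal, the medians were -0.029 for DEN on the control diet and -0.068 for both treatments against neither, 1 serpin was lower in the latter, and the gap between the Serpina6 diet differences was -0.96. The cause of these shifts was not tested, beyond the shift that centring makes in every gene. Of 106 such values over all alternatives, 96 stayed close to the reported one (counts within 1.5 times, medians within 0.1, the Serpina6 gap past 2-fold). Of 320 values of serpins named by the rule above, 317 stayed on their side of 2-fold, and the other 3 were Serpina7. Serpinb1a falls outside that rule and is not in the 320. It was the serpin that passed 2-fold lower after centring. No paired analysis was possible because each group has 1 array. No array could be left out, since each is a whole group. The arrays carry no detection calls here, and levels near the limit may hide differences.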

Other observations

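A probe set named for Serpinb9h, Serpinb9g, Serpinb9e and Serpinb9f, which the array does not separate, read 3.51 on the control diet, 3.71 on the CA diet, 3.42 after DEN on the control diet and 4.50 after DEN on the CA diet. All 4 values are under the expression limit of 4.86.

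The 250 bases before the start of Serpina3n were alike to very different degrees with those of its relatives. Over 5 relatives with at least 150 aligned bases the identity ran from 68.4% to 92.7%, with a median of 68.6%. Whether the Serpina3n probe set reads relatives too was not tested.

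34 of the 39 serpins had a stretch in the RefSeq table, with 40 stretches in all. The TATA box letters were in 10 of the 40, beside 12.4% of all stretches, the C/EBP core in 9 (9.56% of all) and the AP-1 element in 9 (6.75%). The STAT element was in 7 (7.02%), the HNF1 half-site in 6 (6.43%) and the E-box in 0 (6.02%). Several genes are listed with 2 starts, some of them overlapping, so these stretches are not independent.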
